A study of Ovis aries with 2 samples.

Results

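Extraembryonic (ExE) endoderm cells were examined in sheep embryos of the Ujumqin breed and the Hulunbuir short-tailed breed, collected on embryonic day 16 (E16). A cell was taken as ExE endoderm when it held at least 20 unique molecular identifiers (UMIs), each standing for 1 captured RNA molecule, of AHSG, AFP, TTR and SERPINA1 summed, and at least 200 such UMIs per 10000 UMIs of the cell. The rule found 238 of 24137 kept cells. There were 229 among the 14554 kept cells of Ujumqin sheep and 9 among the 9583 kept cells of Hulunbuir sheep. The values of these 4 genes therefore chose the cells, and their levels are given as a description.

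The endoderm of the yolk sac is an absorptive and secretory epithelium. Before the liver takes over, it makes plasma proteins such as alpha-fetoprotein, transferrin and the apolipoproteins. It also takes up protein, lipid, iron and vitamins from the fluid it faces and passes them to the embryo. Much of this programme is shared with hepatocytes and with the lining of the kidney tubule and the gut, so its genes mark a function as well as a cell type.

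Dissociated embryos were pooled within each breed, the design text giving n = 3 a group, and 1 library of each breed was made with 3′ droplet chemistry, so no breed difference has a replicate check. Extraembryonic tissue was removed under a microscope before dissociation, and red blood cells were lysed. The ExE endoderm cells are thus what remained after dissection, and their number in a library cannot be told apart from how much of the membranes was left on the embryos. The Ujumqin library held 17059 barcodes and 212933364 UMIs, and the Hulunbuir library held 10709 barcodes and 131385353 UMIs. A cell was kept if it showed 200 genes or more and less than 10% of its UMIs were mitochondrial, and kept cells had a median of 9519 UMIs in Ujumqin and 11879 in Hulunbuir sheep. Erythroid cells, counted as kept cells outside the ExE endoderm with at least 20 UMIs of erythroid marker genes, numbered 4538 in the Ujumqin library and 1 in the Hulunbuir library. There were 61 barcodes present in both libraries, and 0 of the 238 ExE endoderm cells carried such a barcode. No doublet caller was run.

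The ExE endoderm share was 1.57% of the kept Ujumqin cells (229 of 14554, exact 95% binomial interval 1.38 to 1.79%). In Hulunbuir sheep it was 0.0939% (9 of 9583, interval 0.0430 to 0.178%). The contrast depends on shallow cells, since a minimum of 500 genes a cell left 83 Ujumqin and 9 Hulunbuir ExE endoderm cells. Without cells of at least 20 erythroid UMIs, the Ujumqin share was 2.24% (224 of 10011, interval 1.96 to 2.55%) and the Hulunbuir share was 0.0939%. The intervals cover counting error only, as do all intervals given here, and they do not cover the spread between embryos or dissections.

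In Ujumqin sheep the ExE endoderm cells of lowest share held 224, 234 and 244 rule UMIs per 10000, and the highest cells outside that had enough rule UMIs held 198, 165 and 161. A further 12 shallow Ujumqin cells reached the required share but had under 20 rule UMIs. In Hulunbuir sheep the lowest 3 ExE endoderm cells held 283, 323 and 697 rule UMIs per 10000, and the highest cell outside held 80.1.

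Depth varied widely among these cells. In Ujumqin sheep 66 cells were deep (at least 10000 UMIs, median 55997.5, range 10598 to 210778), 12 were of middle depth (median 4494.5) and 151 were shallow (under 3000 UMIs, median 744). The deep cells carried 95.4% of all UMIs of the Ujumqin ExE endoderm cells and the shallow cells carried 3.21%, so levels summed over all 229 cells describe mainly the 66 deep cells. The 9 Hulunbuir cells held between 1482 and 10835 UMIs, with a median of 4494, and 50804 UMIs in all. The other Ujumqin cells had a median of 9910 UMIs, and whether any deep cells were doublets was not tested.

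**Figure D1:**
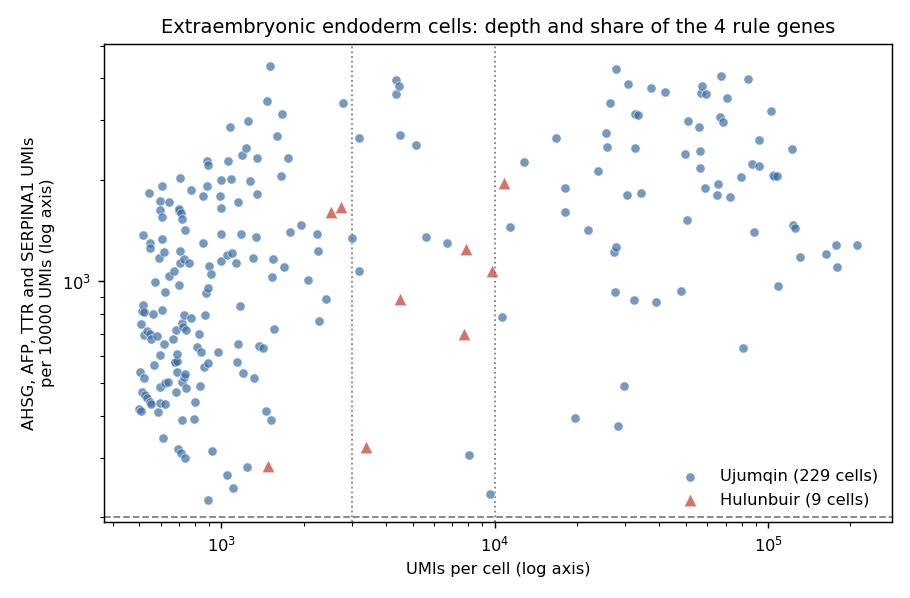
UMIs per cell (horizontal log axis) and UMIs of AHSG, AFP, TTR and SERPINA1 per 10000 UMIs (vertical log axis) for each of the 229 Ujumqin and 9 Hulunbuir ExE endoderm cells; the dashed line is the rule's limit of 200, and the dotted lines are the depth limits of 3000 and 10000 UMIs. The Ujumqin cells form a deep and a shallow cloud with 12 cells between them, and the Hulunbuir cells lie between 1482 and 10835 UMIs.

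Gene levels are sums over the cells of a group, scaled to 1000000 UMIs in all (CPM). In 3′ counting each molecule gives 1 UMI whatever the length of its transcript, so levels are compared between genes without a length correction. The 4 rule genes took 20.2% of all UMIs of the Ujumqin ExE endoderm cells and 12% of those of the Hulunbuir cells. AHSG (ENSOARG00020000594), fetuin-A, an inhibitor of mineral deposition and a major fetal plasma protein, was at 116548 CPM in Ujumqin and 85761 CPM in Hulunbuir ExE endoderm cells. SERPINA1 (ENSOARG00020021121), the elastase inhibitor alpha-1-antitrypsin, was at 46123 and 19782 CPM. TTR (ENSOARG00020024865), the thyroxine carrier transthyretin, was at 25372 and 7165 CPM. AFP (ENSOARG00020002749), alpha-fetoprotein, the albumin-like carrier of the fetus, was at 13544 and 7283 CPM. AHSG thus led in both libraries, and each of the other 3 genes was below it.

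Single cells spread widely around these sums. In the 66 deep Ujumqin cells AHSG ran from 20283 to 275742 CPM with a median of 118595. AFP ran from 137 to 32271 CPM with a median of 13139. In the 9 Hulunbuir cells AHSG ran from 19561 to 136133 CPM with a median of 77128, and AFP was found in 7 of the 9 cells, with a median of 4507 and a highest value of 57448 CPM. The per-cell ranges of the libraries overlapped for both genes.

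Rule gene RNA was also found outside the ExE endoderm cells, and much more often in the Ujumqin library. Of all rule gene UMIs in kept cells, 96.5% lay inside the 229 Ujumqin cells and 95.9% inside the 9 Hulunbuir cells. An AHSG UMI was present in 59.0% of the other Ujumqin cells (median depth 9910 UMIs) and in 0.752% of the other Hulunbuir cells (median depth 11891 UMIs). Of the 4538 erythroid cells, 68.2% had an AHSG UMI. The level was 85.9 CPM in the other Ujumqin cells and 0.778 CPM in the other Hulunbuir cells, against 116548 and 85761 CPM inside.

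Several plasma protein genes kept nearly the same ratio to AHSG outside the ExE endoderm cells as inside. Per 100 AHSG UMIs, Ujumqin ExE endoderm cells held 39.6 of SERPINA1 and the other Ujumqin cells held 38.5. TTR was at 21.8 inside and 21.2 outside, TF at 5.26 and 6.77, and FETUB at 3.39 and 3.53. AFP was at 11.6 inside and 24.3 outside. Larger departures were seen for APOA1, from 16.6 inside to 445 outside, APOM, from 3.29 to 17.6, APOA2, from 26.4 to 106, and ALB, from 0.512 to 1.88. In erythroid cells alone APOA2 was at 205 per 100 AHSG UMIs, and in the EPCAM cells defined below APOA1 was at 1358. The share of free RNA in these counts was not tested.

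A gene was counted as higher or lower when its level differed at least 4-fold between groups and reached 10 CPM in the group where it was higher, among genes with at least 20 UMIs over both groups. With 1 library per breed and cells that are not replicates, these are limits of size and no test was made. The cells were chosen by the levels of their genes, so a difference from the rest is a description of them. Between the Ujumqin ExE endoderm cells and the 14325 other Ujumqin cells, 238 of 12003 genes were higher (1.98%) and 290 were lower (2.42%), so that 45.1% of the genes counted were higher. Since the rule genes fill much of the total, leaving them out of it raises every ExE endoderm level 1.25-fold, by 0.32 on the log2 scale. With that total 301 genes were higher and 212 lower, which is 58.7% higher. The deep cells alone, described above, gave 239 higher (1.99%) and 298 lower (2.48%) of 12002 genes, and the shallow cells alone gave 212 higher (1.78%) and 581 lower (4.88%) of 11894. Leaving erythroid cells out of the other cells gave 190 higher and 609 lower. The median log2 difference of all 12003 genes was -0.34, and list medians are to be read against it.

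Epithelial cells of the same library served as closer comparisons. The first group was 54 Ujumqin cells with at least 2 UMIs of the keratin gene KRT7 and at least 1 of the uroplakin gene UPK3A. Against them, 215 of 5568 genes were higher (3.86%) and 456 lower (8.19%), which is 32.0% higher among those counted, and 47.6% with the rule genes left out of the total. The other group was 161 Ujumqin cells with at least 2 UMIs of the adhesion gene EPCAM that were neither erythroid nor KRT7 UPK3A cells, a mixed group in which the endothelial gene PECAM1 was at 142 CPM. Against them, 183 of 6668 genes were higher (2.74%) and 678 lower (10.2%), which is 21.3% higher, and 32.3% with that total. FETUB, TF, APOA2, FGG, S100G, SPP2, ALB, APOH, KNG1 and APOM were among the 20 genes of largest fold in each of the 3 comparisons.

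The 20 genes of largest fold over the other Ujumqin cells included 6 for which the files give no symbol. The leading gene of all was among these 6, and is listed only as ENSOARG00020018274. It stood at 24825 CPM in the Ujumqin ExE endoderm cells, 15 CPM in the other Ujumqin cells and 6732 CPM in the Hulunbuir ExE endoderm cells. It was found in 227 of 229 and in 9 of 9 ExE endoderm cells, so a transcript about as abundant as TTR in Ujumqin cells has no name here.

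Apolipoproteins, which coat the lipid particles sent out by yolk sac, gut and liver, summed to 60916 CPM over the 9 listed genes found in the files. Of 8 genes with enough UMIs, 7 were higher than in the other Ujumqin cells and 0 were lower, with a median log2 difference of 6.06. APOA2, a structural protein of high-density lipoprotein, was at 30823 CPM against 91.0 CPM outside. APOA1, the main protein of the same particle, was at 19309 CPM against 382 CPM. APOM, a small lipocalin of that particle, was at 3829 against 15.1 CPM, and APOE, a ligand of lipoprotein receptors, was at 3427 against 512 CPM. APOC2, the activator of lipoprotein lipase, was at 2767 against 78.8 CPM, and APOH, a phospholipid-binding plasma protein, was at 653 against 0.482 CPM. APOE had the smallest fold of these genes, 6.69-fold, and APOH the largest, 1353-fold.

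Carrier proteins of the plasma followed. Of 7 genes with enough UMIs, 6 were higher, 0 were lower, and the median log2 difference was 6.96. TF, transferrin, which carries iron, was at 6132 CPM in the ExE endoderm cells and 5.81 CPM in the other Ujumqin cells. RBP4, which carries retinol, was at 748 against 71.7 CPM. ALB, albumin, was at 597 against 1.62 CPM, and so below AFP in the same cells. AMBP, the precursor of a heme-binding lipocalin and a protease inhibitor, was at 156 CPM, and SERPINA6, the glucocorticoid carrier, at 147 CPM. HPX, hemopexin, was found in 27 of the 229 cells with 50 UMIs in all. GC, the vitamin D carrier, had 0 UMIs in all kept Ujumqin cells.

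Plasma protease inhibitors and coagulation proteins showed the same direction. Of 9 inhibitor genes with enough UMIs, 5 were higher and 0 lower, with a median log2 difference of 3.93. FETUB, fetuin-B, was at 3949 against 3.03 CPM, and SERPINC1, antithrombin, at 298 against 2.93 CPM. KNG1, kininogen, was at 225 against 0.219 CPM. Of 7 coagulation genes, 5 were higher and 0 lower, with a median of 6.55. Among them FGG and FGB, the fibrinogen gamma and beta chains, were at 985 and 369 CPM against 0.590 and 0.439 CPM. F2, prothrombin, was at 222 CPM, F7 at 97.7 CPM and PLG, plasminogen, at 76.3 CPM. F10 and PROS1 had 19.4 and 25.5 CPM in the ExE endoderm cells against 14.3 and 10.5 CPM outside.

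Complement genes, another secreted class of the liver, were low. Of 4 with enough UMIs, 0 were higher and 0 lower, and the median log2 difference was 2.23. The 10 genes found in the files summed to 25.5 CPM, against 2.80 CPM in the other Ujumqin cells. CFB and C3 had 19 and 15 UMIs in the 229 cells, under the 10 CPM that a gene counted as higher must reach. The coagulation genes summed to 1799 CPM in the same cells.

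The endocytic receptors of visceral endoderm bind proteins and vitamins at the apical surface and bring them inside. Of 7 genes, 2 were higher and 0 lower, with a median log2 difference of 1.69. LRP2, megalin, a large scavenger receptor, was at 58.7 against 0.575 CPM. DAB2, the adaptor that links megalin to clathrin, was at 342 against 80.8 CPM. CUBN, cubilin, the partner of megalin, had 11 UMIs in all. FCGRT, the neonatal Fc receptor that carries immunoglobulin G, was at 110 against 27.9 CPM, just under the 4-fold limit. The clathrin light chain gene CLTA stood at 175 and 168 CPM.

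Iron and vitamin genes did not move as a group. Of 8 genes, 2 were higher and 1 lower, with a median of 1.25. FTH1, ferritin heavy chain, the iron store, had the highest level at 7894 CPM, against 9890 CPM outside. TCN2, the vitamin B12 carrier, was at 61.3 against 6.34 CPM, and SLC40A1, ferroportin, the iron exporter, at 42.6 against 8.74 CPM. TFRC, the transferrin receptor, had 4 UMIs in the 229 cells.

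Among nutrient transporters 5 of 11 genes were higher and 0 lower, with a median of 0.17. SLC39A5, a zinc importer of the basolateral membrane, stood at 333 CPM against 0.307 CPM. SLC7A9 and SLC7A7, light chains of amino acid transporters, stood at 22.5 and 16.6 CPM against 0.0244 and 0.556 CPM. The glucose transporter gene SLC2A3 was at 86.8 against 77.2 CPM, and SLC2A2 and SLC5A1 had 0 UMIs in all kept Ujumqin cells. AQP8, a water channel of secretory epithelia named here for its fold, was at 2125 against 4.39 CPM.

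Metallothioneins bind zinc and copper inside the cell, and were listed after earlier results of these data were known. Of 4 genes 3 were higher and 0 lower, with a median log2 difference of 3.00. MT1A was at 2313 CPM against 33.8 CPM outside. MT2 was at 1821 against 368 CPM and MT1C at 1190 against 91.1 CPM. The erythroid cells of the same library held MT1A at 56.6 CPM and MT2 at 619 CPM.

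Lipid and metabolic enzymes were mixed. Of 9 lipid genes, 4 were higher and 1 lower, with a median of 1.55. FABP3 and FABP1, carriers of fatty acids in the cytosol, were at 558 and 158 CPM against 120 and 0.127 CPM. DGAT2, which completes triglyceride synthesis, was at 22.1 against 0.161 CPM. PLIN2, a coat protein of stored lipid droplets, was the gene counted as lower, at 3.64 against 18.3 CPM. Of 8 liver-type amino acid and sugar enzymes, 4 were higher and 0 lower, with a median of 2.16. HPD, an enzyme of tyrosine breakdown, was at 18.9 against 0.0195 CPM. GATM and GAMT, the enzymes of creatine synthesis, were at 15.9 and 351 CPM against 2.05 and 89.8 CPM, the latter within the 4-fold limit. TAT, PCK1, TDO2 and G6PC, enzymes of the mature liver, had 0 UMIs in all kept Ujumqin cells. Of 6 genes in the list named for tyrosine breakdown and folate enzymes, added after earlier results were known, 4 were higher and 0 lower. HGD, OTC (an enzyme of the urea cycle) and FTCD were at 152, 121 and 88.8 CPM against 0.132, 0.112 and 0.137 CPM.

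Transcription factors of the endoderm were mostly near the limit of detection. Of 7 with enough UMIs, HNF4A was higher, 0 were lower, and the median was -0.05. HNF4A, a nuclear receptor that drives liver and visceral endoderm genes, was at 51.9 CPM against 0.117 CPM outside, and was found in 54 of 229 cells, or in 51 of the 66 deep cells. The files held 24 UMIs of NR5A2, 17 of GATA6, 7 of GATA4 and 3 of FOXA2 in these cells. SOX17, SOX7 and HHEX had 0 UMIs in them. Of the 18 listed factors 5 had 0 UMIs, and HNF4A aside the factors named here had at most 24, so the naming rests on the plasma protein genes and HNF4A.

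Of 8 genes for signals of visceral endoderm, BMP2 was higher at 13 against 1.05 CPM, 0 were lower, and the median was -0.08. CER1, NODAL and DKK1, signals of the anterior visceral endoderm of younger embryos, had 0 UMIs. IGF2, a growth factor of fetal and extraembryonic tissue, was at 521 CPM in the ExE endoderm cells and 503 CPM outside. Among 11 genes of the insulin-like growth factor system, a list added later, the binding proteins IGFBP3 and IGFBP1 were higher. IGFBP3 was at 174 against 12.2 CPM. IGFBP1 had 85 UMIs in 45 ExE endoderm cells and 0 in the other 14325 Ujumqin cells, which is at least 1324-fold higher against a floor of 3 UMIs.

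Of 12 genes of basement membrane and parietal endoderm, an endoderm that lays down matrix, 0 were higher and 0 lower, with a median of -0.41. COL4A1, a collagen IV chain, was at 166 against 238 CPM, and SPARC, a matrix protein, at 23.0 against 24.8 CPM. Of 19 genes of the secretory pathway, 0 were higher or lower, with a median of 0.85. The translocon subunits SSR4, SSR3 and SSR2 were at 1778, 1326 and 1134 CPM against 829, 534 and 470 CPM. Of 11 lysosomal genes, 0 were higher or lower, with a median of 0.49. LAMP2, a lysosomal membrane protein, was at 61.3 against 22.1 CPM.

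The cells were epithelial in their junction genes. Of 11 genes of epithelial junctions and keratins, 4 were higher and 0 lower, with a median of 1.37. CLDN4 and CLDN7, claudins of tight junctions, were at 469 and 111 CPM against 14.3 and 9.77 CPM. EPCAM, an adhesion protein, was at 54.2 against 6.24 CPM, and VIL1, villin of the microvillus core, at 51.2 against 7.49 CPM. KRT18 and KRT19 were at 1608 and 1000 CPM, against 622 and 679 CPM in the other Ujumqin cells and 2243 and 2893 CPM in the KRT7 UPK3A cells. KRT7 was at 5.92 CPM against 447 CPM in those cells, and UPK3A had 0 UMIs in the ExE endoderm cells against 187 CPM. KRT7 and UPK3A chose those cells, so their high levels there were fixed by the choice.

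**Figure D2:**
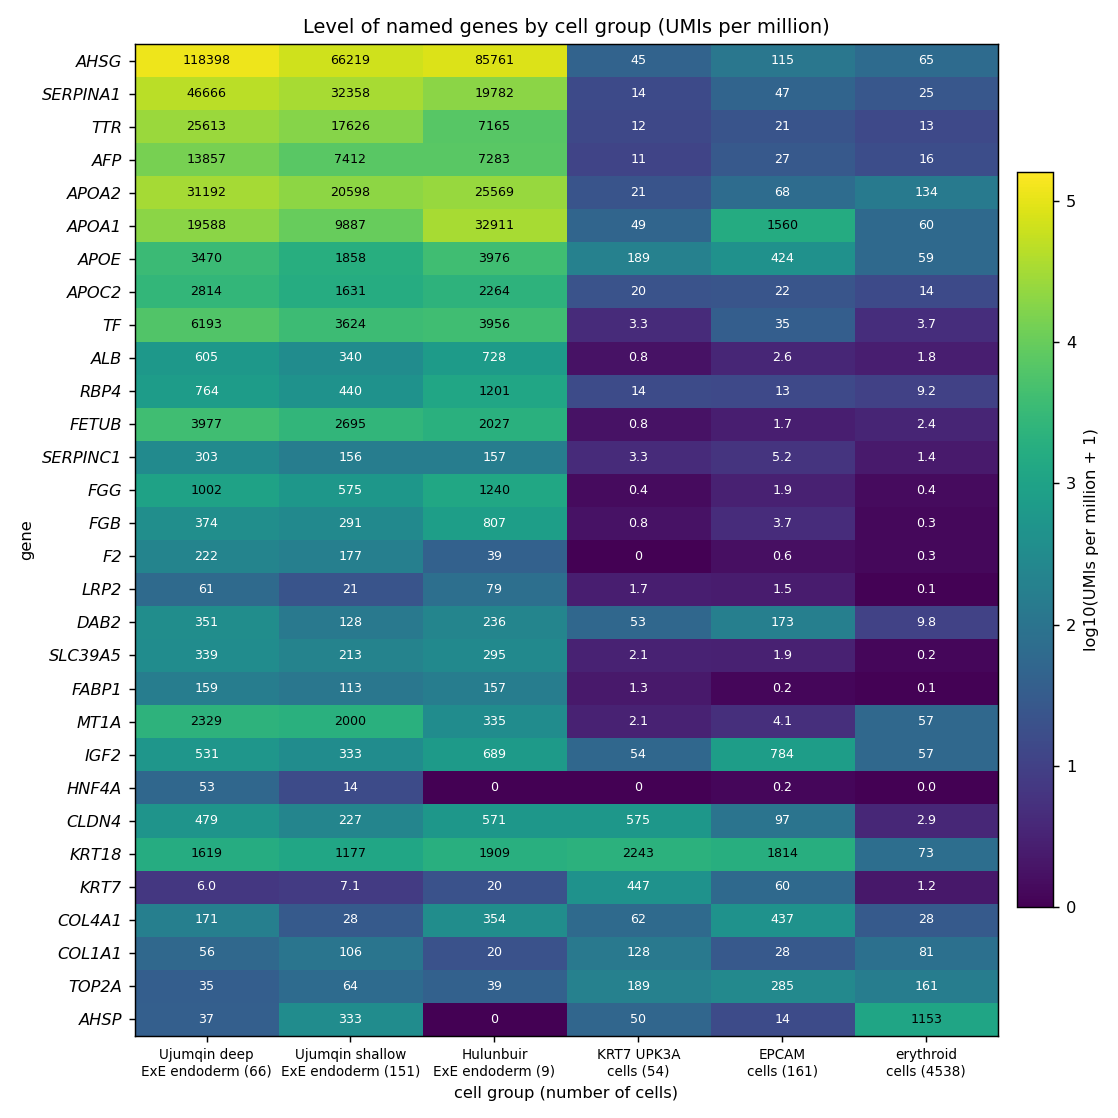
Level of 30 genes (vertical) in 6 groups of cells (horizontal, number of cells in brackets), in CPM as printed, coloured by log10 of the level plus 1. Plasma protein genes are high in the 3 groups of ExE endoderm cells (AHSG 118398, 66219 and 85761) and low in the 3 other groups, APOA1 is also at 1560 in EPCAM cells, and the erythroid gene AHSP is at 37.0 in deep, 333 in shallow and 0 in Hulunbuir ExE endoderm cells.

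**Figure D3:**
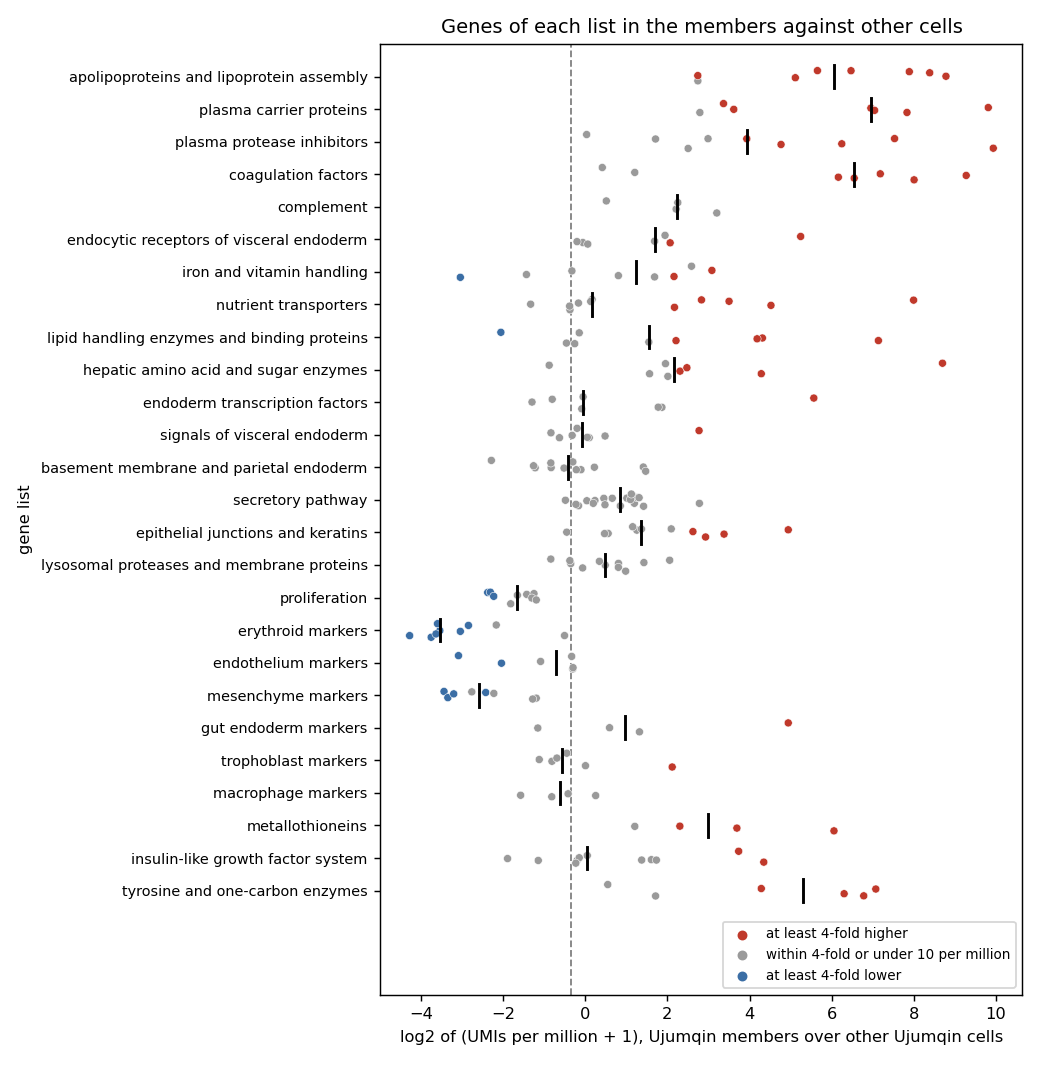
Log2 difference (CPM plus 1) between Ujumqin ExE endoderm cells and the other Ujumqin cells for each gene with at least 20 UMIs (points), by list (vertical), with the list's median (black bar) and the median of all genes at -0.34 (dashed line). Carriers, coagulation proteins, apolipoproteins and tyrosine and folate enzymes lie furthest to the right, with medians of 6.96, 6.55, 6.06 and 5.30, and erythroid markers furthest to the left with a median of -3.54.

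Markers of other cell types were low, with ELF5 and CLDN4 as the exceptions. Of 9 erythroid genes, 0 were higher and 7 lower (median -3.54). AHSP, the chaperone of alpha-globin, was at 46.9 CPM in the ExE endoderm cells and 645 CPM in the other Ujumqin cells. Of 8 mesenchyme genes, 0 were higher and 4 lower (median -2.59), the 8 summing to 140 against 1438 CPM, with COL1A1 at 56.7 against 625 CPM. Of 6 endothelium genes, PECAM1 and KDR were lower and 0 higher (median -0.71), with 5 and 9 UMIs, and 5 of the 8 listed genes were at 0. Of 4 macrophage genes, 0 were higher or lower (median -0.62), and 6 of the 8 listed were at 0. Of 4 gut endoderm genes, CLDN4, already given, was higher and 0 lower (median 0.96), and CDX2 had 14 UMIs. Of 6 trophoblast genes, ELF5 was higher at 12.1 against 2.01 CPM and 0 were lower (median -0.57). The KRT7 UPK3A cells held ELF5 at 27.6 CPM. The 6 pregnancy-associated glycoprotein genes found in the files, markers of ruminant trophoblast, had 0 UMIs in ExE endoderm cells.

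Proliferation genes were below their level elsewhere. Of 9 genes, 0 were higher and 3 were lower than in the other Ujumqin cells (median log2 difference -1.65). TOP2A, a topoisomerase of dividing cells, was at 35.3 against 187 CPM. CDK1 was at 6.38 against 35.6 CPM, and CCNB2, a mitotic cyclin, at 14.1 against 69.9 CPM. All 3 were also lower than in the KRT7 UPK3A cells, and TOP2A and CCNB2 than in the EPCAM cells, where CDK1 was at 23.4 CPM and within the 4-fold limit. After thinning to 2000 UMIs per cell, a UMI of TOP2A or CDK1 was found in 4 of 84 Ujumqin ExE endoderm cells (4.76%, interval 1.31 to 11.7%), with 145 shallower cells left out. The share was 3 of 66 in deep cells, 26.4% in KRT7 UPK3A cells, 37.4% in EPCAM cells and 27.5% in all other Ujumqin cells. Unthinned, it was 17.5% of all 229 cells and 47.0% of the deep cells. In Hulunbuir sheep it was 0 of 8 after thinning, with 1 cell left out and an interval up to 36.9%, and 11.1% unthinned.

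Deep and shallow Ujumqin cells shared the plasma protein programme, at different levels. AHSG was at 118398 CPM in deep and 66219 CPM in shallow cells, APOA2 at 31192 and 20598, TF at 6193 and 3624, and FETUB at 3977 and 2695. The median rule share was 2052 per 10000 UMIs in deep cells and 847 in shallow cells. Of 4238 genes, 280 were higher in deep cells (6.61%) and 59 were lower (1.39%), with a median log2 difference of 0.17. Genes higher in deep cells included FST, follistatin, at 235 against 35.5 CPM, and COL4A1 at 171 against 28.4 CPM. IGFBP3 was at 181 against 28.4 CPM, and VIL1 at 52.5 against 7.09 CPM. In the shallow cells 1 UMI stands for 7.09 CPM, and such genes had enough UMIs to be counted through the deep cells.

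Genes lower in deep cells were led by erythroid genes. AHSP was at 37.0 CPM in deep cells and 333 CPM in shallow cells. A gene listed only as ENSOARG00020015536, which reached 203787 CPM in erythroid cells, was at 6189 CPM in deep cells, 68148 CPM in shallow cells and 116687 CPM in the other Ujumqin cells. The 9 erythroid markers summed to 57.8 CPM in deep and 553 CPM in shallow cells, against 1120 CPM in the other Ujumqin cells, and 3 of the 9 were counted as lower in deep cells. At least 1 erythroid marker UMI was found in 34 of 66 deep and 55 of 151 shallow cells, and at least 20 in 5 deep cells and 0 shallow cells. A shallow cell thus held fewer marker UMIs in number but a larger share of them, and the part of erythroid RNA in the difference between deep and shallow cells was not tested. The Hulunbuir ExE endoderm cells had 0 UMIs of all 9 erythroid markers.

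The deep cells differed among themselves in genes of several kinds, some plasma protein genes among them. Over 411 genes of at least 200 CPM, the median coefficient of variation between deep cells beyond counting error was 0.38. Genes without a symbol led the order, among them ENSOARG00020015536 at 3.49 and ENSOARG00020004314 at 3.53, which reached 203787 and 172832 CPM in erythroid cells. VIM, vimentin, a cytoskeletal gene at 2244 CPM in the other Ujumqin cells, was at 2.87. S100G, calbindin-D9k, which carries calcium through epithelial cells, was the highest, at 1.78, of the genes more abundant in ExE endoderm than in the other cells, followed by MT1A at 1.49, SPP2, a secreted phosphoprotein of the cystatin family, at 1.29, APOH at 1.08 and FABP3 at 1.06. S100G was found in 49 of 66 deep cells and reached 16539 CPM, and SPP2 was also found in 49 and reached 2772 CPM. APOA2 was found in all 66, between 5891 and 83169 CPM.

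Levels along SPP2 were then set out for the 66 deep cells, a choice made after the values of single cells were seen. For this, levels are per 1000000 UMIs of genes other than the rule genes, called rule-free CPM. SPP2 (ENSOARG00020004890) was at 0 in 17 cells, had a median of 79.6 and reached 4044. It left 35 cells under 100, 26 cells at 500 or more, and 5 between. The cells of high and low SPP2 had similar depths, with median totals of 53778 and 56118 UMIs. They differed in the share of the rule genes, with medians of 3031 and 1416 rule UMIs per 10000. The ranges overlapped, at 1518 to 4254 and 373 to 2624. Median genes per cell were 2569 and 3129. The part of the rule share in the contrast along SPP2 was not tested.

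Spearman's correlation with SPP2 over the 66 cells is a description, given for 849 genes of at least 100 rule-free CPM. The points are cells of 1 library and share any free RNA in it, which was not tested, and the shares of a cell sum to a fixed total. APOH was at 0.85, A2M, a broad protease inhibitor, at 0.83, AMBP at 0.80, RGN, regucalcin, a calcium-binding protein of liver, at 0.79, S100G at 0.79, APOA2 at 0.77, F2 at 0.75 and TF at 0.64. Of the rule genes TTR was at 0.82, SERPINA1 at 0.80, AFP at 0.69 and AHSG at 0.57. APOE and DAB2 were near 0, at 0.10 and -0.09. On the other side APOA1 was at -0.34, KRT19 at -0.46, KRT8 at -0.49, KRT18 at -0.63, FABP3 at -0.64, CD24, a surface glycoprotein of immature epithelium, at -0.67 and IGFBP2 at -0.70. The median of the 849 genes was -0.09.

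Summed over cells, the contrast was large for some genes and small for others. S100G was at 2992 rule-free CPM in the 26 cells of high SPP2 (interval 2888 to 3100) and 275 in the 35 cells of low SPP2 (253 to 298). It was found in all 26 of the former, between 343 and 8053 rule-free CPM, and in 19 of the latter, between 0 and 2303, so single cells overlapped. In the 5 cells between it was at 0, 401, 2030, 2424 and 25823 rule-free CPM, and 1 cell thus carried most of their summed level of 5956. APOH was at 2174 and 172, AMBP at 492 and 43.0, A2M at 533 and 36.8, and FABP1 at 460 and 70.7. APOA2 was at 62920 and 26627, TF at 12347 and 5395, and ALB at 1098 and 587.

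Other genes of the programme differed little between these ends, or were higher in the cells of low SPP2. APOE was at 4550 and 4241 rule-free CPM in cells of high and low SPP2, AQP8 at 2501 and 2853, CLDN4 at 582 and 602, and HNF4A at 66.2 and 70.7. APOA1 was at 20299 and 26457, and RBP4 at 842 and 1048. KRT18 was at 671 and 2823, KRT19 at 504 and 1625, FABP3 at 191 and 998, and IGFBP2 at 34.0 and 376. CD24 had 1 UMI in the cells of high SPP2 and stood at 181 in those of low SPP2. The keratins thus ran against APOH, AMBP and A2M, with APOA1 and RBP4 on the side of the keratins and APOE and CLDN4 changing little.

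Mitochondrial and ribosomal RNA moved with SPP2 as well. All 10 mitochondrial genes among the 849 had a correlation above 0, with a median of 0.64, and 47 of 50 ribosomal protein genes were below 0, with a median of -0.60. The median mitochondrial share was 4.46% of UMIs in cells of high SPP2 and 2.58% in those of low SPP2. The median share of ribosomal protein genes was 13.7% and 23.9%. An erythroid marker UMI was found in 12 of 26 and in 21 of 35 cells, and all 5 cells with at least 20 of them had low SPP2. The part of these shares in the contrast was not tested.

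**Figure D4:**
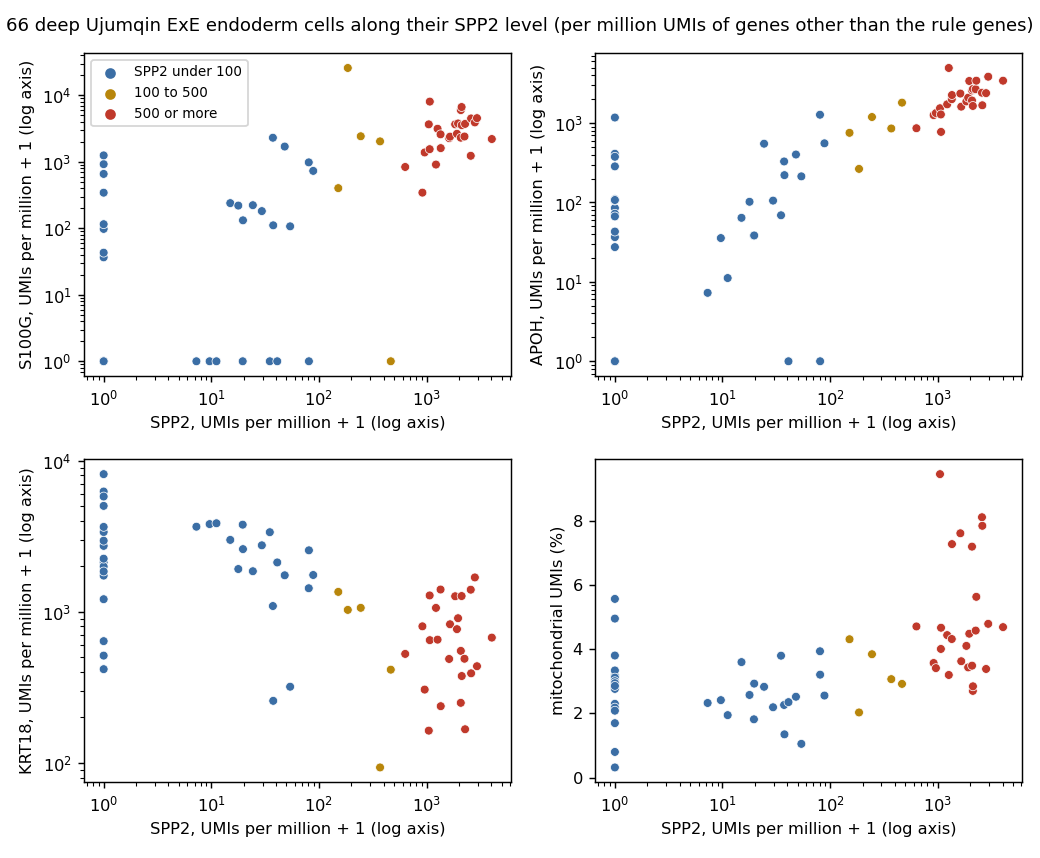
S100G, APOH and KRT18 in rule-free CPM plus 1 (log axes) and mitochondrial UMIs in percent, against SPP2 in rule-free CPM plus 1 (log axis), for the 66 deep Ujumqin cells, 1 point a cell, coloured by SPP2 level. The 26 cells of high SPP2 lie at 343 or more for S100G and 773 or more for APOH, KRT18 runs from 162 to 1688 in them and from 256 to 8153 in the 35 cells of low SPP2, and their median mitochondrial share is 4.46% against 2.58%.

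Across all 229 Ujumqin cells, the other plasma protein genes were also set against the share of the rule genes, again with the rule genes out of the total. From 200, from 500, from 1000 and from 2000 rule UMIs per 10000, each band ending where the next begins, there were 34, 61, 76 and 58 cells. APOA2 was at 11510, 18498, 24947 and 59127 rule-free CPM in these bands. APOM was at 514, 2120, 3675 and 6876. APOA1 was at 13458, 27337, 25066 and 23352, and RBP4 at 416, 1036, 1027 and 863. The pooled sums come mainly from the deep cells, and the 151 shallow cells differed. In them APOA1 was at 5291, 8234, 12261 and 23945 and RBP4 at 281, 408, 662 and 597, so that APOA1 was higher in each band than in the one before. Over all 229 cells S100G was at 159, 337, 203 and 3109, and SPP2 at 26.6, 61.3, 43.4 and 1237. In the shallow cells S100G was at 468, 576, 1233 and 4240, and SPP2 at 0, 48, 274 and 955, the latter from 0, 2, 12 and 16 UMIs. ENSOARG00020015536 was at 94359 in the lowest band and 4785 in the highest. The lowest band had a median of 728.5 UMIs a cell, but its 3 deep cells held 8711 of its 10657 UMIs of this gene. In deep cells the gene was at 117183 in the lowest band and 3868 in the highest, and in shallow cells at 85588.5 and 68908.

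The 9 Hulunbuir ExE endoderm cells carried the same classes of secreted proteins. Against the 9574 other Hulunbuir cells, 409 of 12229 genes were higher (3.34%) and 2113 lower (17.3%). In these 9 cells 1 UMI stands for 19.7 CPM, above the limit of 10 CPM, so genes of low level elsewhere could fall on either side by counting alone. APOA1 was at 32911 CPM (interval 31352 to 34527), between 4723 and 44770 CPM in the single cells. APOA2 was at 25569 CPM (24197 to 26998), between 1350 and 34333 CPM. TF was at 3956 CPM (3428 to 4543) and FGG at 1240 CPM (953 to 1587), each found in 8 of 9 cells. Apolipoproteins, fibrinogen and transferrin were thus shared by the ExE endoderm cells of both libraries.

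Set beside all Ujumqin cells, APOA1 was higher in the Hulunbuir cells and several others were lower. APOA1 stood at 32911 against 19309 CPM, FGB at 807 against 369 CPM, KRT19 at 3720 against 1000 CPM and FABP3 at 1614 against 558 CPM. TTR stood at 7165 against 25372 CPM, APOH at 157 against 653 CPM and MT1A at 335 against 2313 CPM. MT1A came from 1 of the 9 cells. APOA2 was 0.830 times its Ujumqin level (interval 0.785 to 0.876). S100G, SPP2 and HNF4A had 0 UMIs among the 50804 UMIs of the Hulunbuir cells. HNF4A was at 66.2 and 70.7 rule-free CPM in the deep Ujumqin cells of high and low SPP2. In the Hulunbuir cells 3 UMIs stand for 67.1 rule-free CPM, so the 0 UMIs of HNF4A do not separate the libraries. For cells with a UMI, 0 of 9 allows a share of up to 33.3% by a floor of 3 cells, and the exact upper limit is 33.6%. The largest folds upward between all cells of the libraries rested on few UMIs, with CBR3, a carbonyl reductase, at 118 against 5.92 CPM from 6 UMIs and CCND1, cyclin D1, at 59.1 against 3.19 CPM from 3. Downward, S100G and SPP2 were joined by ENSOARG00020015536, at 0 against 8324 CPM. That gene is abundant in erythroid cells, which numbered 4538 in the Ujumqin and 1 in the Hulunbuir library. In single deep Ujumqin cells it ran from 854 to 189452 CPM with a median of 1895. The part of erythroid RNA in its difference was not tested. TMEM97, PPP1R15A, KIF5B and RHOB were at 0 against 110, 80.8, 79.9 and 76.5 CPM, levels that would give only a few UMIs in the 9 cells.

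The comparison depended on which Ujumqin cells were used. With the rule genes left out of the total, 1030 genes reached 100 rule-free CPM in the Hulunbuir cells or in the Ujumqin cells of high SPP2. Of these, 58 were at least 4-fold higher in the Hulunbuir cells (5.63%) and 84 at least 4-fold lower (8.16%). Against the Ujumqin cells of low SPP2 there were 1027 such genes, 19 higher (1.85%) and 58 lower (5.65%). A gene could enter through 1 group alone, and 1 UMI in the Hulunbuir cells stands for 22.4 rule-free CPM. Some of the higher genes thus rested on few UMIs, with BCAM and FLOT1 at 5 each in both comparisons. Genes near the limits could fall on either side by counting alone. The median size of the log2 difference was 0.79 against cells of high SPP2 and 0.55 against cells of low SPP2. APOA2 was at 29055 rule-free CPM in the Hulunbuir cells, against 62920 and 26627, and so lay below the one and just above the other.

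Gene by gene, the Hulunbuir cells lay near the Ujumqin cells of low SPP2 for APOH, at 179 rule-free CPM (interval 77.3 to 353) against 172, and for AMBP, at 67.1 (13.8 to 196) against 43.0. CD24 was at 201 (92.0 to 382) against 181, and KRT18 at 2170 against 2823. APOE was at 4518 and AQP8 at 2774, near both Ujumqin groups. Beyond either Ujumqin group lay KRT19 at 4227, FABP3 at 1834, IGFBP2 at 962 and APOA1 at 37398 on the high side, and TTR at 8142 and SERPINA1 at 22479 on the low side. S100G had 0 UMIs, set against a floor of 3 UMIs (67.1 rule-free CPM). By counting alone it was at least 4.09-fold below the Ujumqin cells of low SPP2 and at least 44.6-fold below those of high SPP2. These bounds leave out the spread between cells, and S100G ran from 0 to 2303 rule-free CPM in single cells of low SPP2. SPP2 in the Ujumqin cells of low SPP2 was below that floor, so its absence from the Hulunbuir cells says nothing against that group.

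The Hulunbuir cells also differed in RNA quality measures. Their median mitochondrial share was 0.198%, against 3.53% in the other Hulunbuir cells and 2.58% in the Ujumqin cells of low SPP2. Their median share of ribosomal protein UMIs was 29.7%. Without mitochondrial genes, 48 genes were lower than in the Ujumqin cells of low SPP2 (4.72%) in place of 58. The immediate early genes FOS and JUN had 1 and 2 UMIs in the Hulunbuir cells, at 22.4 and 44.7 rule-free CPM, against 288 and 289 in the Ujumqin cells of low SPP2. The Hulunbuir cells had a median of 1070 rule UMIs per 10000, against 3031 and 1416 in the Ujumqin cells of high and low SPP2. The part of rule share, handling, depth and dissection in these differences was not tested, and breed cannot be told apart from library.

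**Figure D5:**
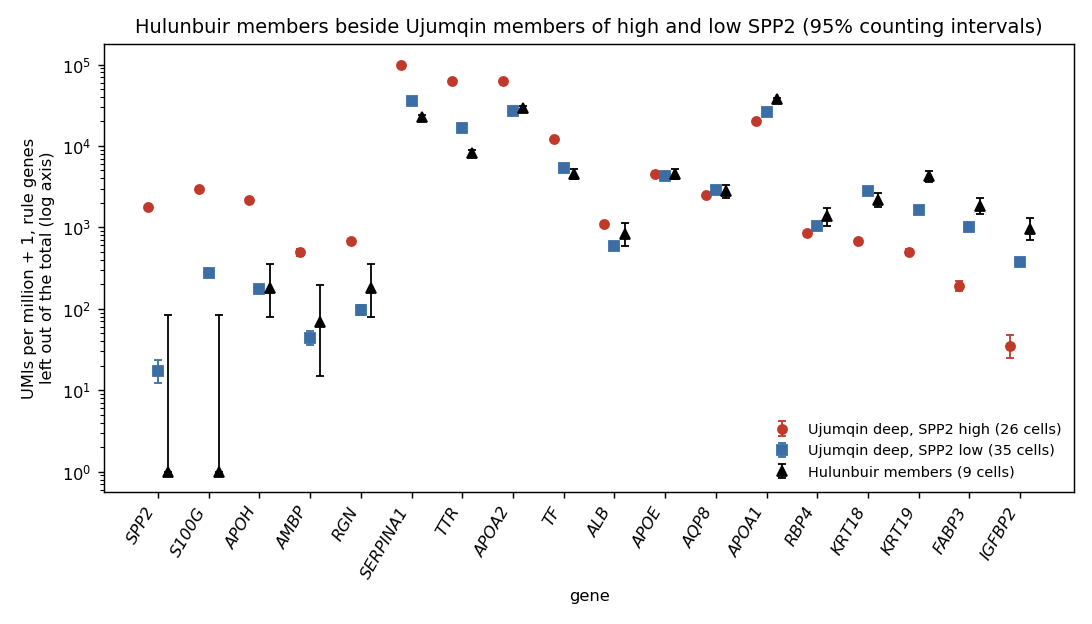
Level of 18 genes (horizontal) in rule-free CPM plus 1 (log axis) in Ujumqin deep cells of high SPP2 (26 cells), of low SPP2 (35 cells) and in the 9 Hulunbuir cells; bars are exact 95% Poisson intervals of the counts. The Hulunbuir cells are at 0 for SPP2 and S100G, near the low SPP2 cells for APOH (179 against 172), and above both groups for KRT19 (4227), FABP3 (1834) and IGFBP2 (962).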

How the data were processed

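The authors deposited UMI counts per gene and barcode for 26478 features of the Rambouillet sheep assembly, not normalized. The matrix header names Cell Ranger 5.0.0, and the submitters' processing notes name Cell Ranger 3.1.0, Seurat 3.2.0 and R 3.6.1. There are 9808 features without a symbol, and where several features shared 1 of 83 symbols, the symbol was kept for the first of them. Barcodes with at least 200 genes and under 10% UMIs on 11 MT- features were kept, 85.3% in Ujumqin and 89.5% in Hulunbuir sheep.

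Levels are summed UMIs over the total of a group, with exact 95% Poisson intervals, and shares have exact Clopper-Pearson intervals. Log2 differences use CPM with 1 added. No test was run, since each breed has 1 library. Only the counting of higher and lower genes between ExE endoderm cells and other Ujumqin cells was tested on simulated data. Those data were summed counts without spread between cells. Genes named are the highest of each list, with at most 4, and the 20 of largest fold with at least 50 CPM, and others were chosen after their values were seen. The cells and the lists (290 genes, 253 in the files) were chosen with earlier results of these data known, and 4 lists were added to the first 25. Alternatives were other cell filters, rule limits, totals, means over cells, fold limits and thinning depths. FOXA-positive gut cells, planned as a comparison, numbered 2, and EPCAM cells were used in their place. The software was scipy 1.17.1 and numpy 2.4.6, with matplotlib 3.10.9 for plots, pandas 2.3.3 for tables and Python 3.11.15. Sequences and genome coordinates were not used here, and some listed genes are counted but not reported by name.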

Additional observations from a re-analysis of the deposited data

How the results depend on the processing

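No paired analysis was possible because each breed has 1 library. A minimum of 500 genes left 83 Ujumqin ExE endoderm cells of 229. Against the other Ujumqin cells, a 2-fold limit gave 432 higher and 1203 lower genes, a total without rule, mitochondrial, ribosomal protein and haemoglobin genes gave 376 higher, shallow cells alone gave 581 lower, and leaving erythroid cells out of the other cells gave 609 lower. Against KRT7 UPK3A cells, a 2-fold limit gave 343 higher and 1956 lower, shallow cells gave 71 and 951, the mean of the cells' CPM gave 793 lower, and a total without rule genes gave 288 lower. Against EPCAM cells, a 2-fold limit gave 306 higher and 2242 lower, and shallow cells gave 83 and 1165.

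The Hulunbuir to Ujumqin ratio of APOA2 was 0.907 by the mean of the cells' CPM, 0.753 without rule genes in the total, 0.780 without all 4 classes, 1.12 against deep cells of low SPP2 and 0.572 against those of high SPP2, so its direction depends on the Ujumqin cells used. APOA2 in the lowest and highest bands of rule share was 15166 and 60509 rule-free CPM without cells of at least 20 erythroid UMIs, and 9970 and 57903 by the mean of the cells' CPM. Rule UMIs inside the Ujumqin cells were 97.1% at 500 genes, 96.1% without a cell filter, 96.6% at a rule limit of 100 and 96.0% at 500, and 93.5% in Hulunbuir sheep at 500. Cells with a TOP2A or CDK1 UMI were 12.7% at 5000 UMIs.

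Fewer cells, shallower cells and larger or smaller totals follow from how these alternatives are built, and other causes were not tested. Alternatives by depth, by SPP2, with EPCAM cells and without erythroid cells were chosen after seeing the data. Gene counts between the libraries were run only with and without mitochondrial genes and against the Ujumqin cells of high and low SPP2, and the FOXA comparison was not run. In the 9 Hulunbuir cells 3 UMIs stand for 67.1 rule-free CPM, so lower levels are not separated from 0 there.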
